A study of Mus musculus with 9 samples.

Results

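The genes described here encode the cytosolic translation initiation factors (eIFs) and elongation factors (eEFs), with the enzymes whose symbols carry the same stems. A probe set belonged to the group when its annotation gave exactly 1 gene symbol that starts with Eif or Eef followed by a digit. The Eif2ak kinases and the Eif4ebp inhibitors were left out by name. That rule found 113 of 36701 probe sets, which named 53 of 15964 genes. Of the 113 probe sets, 58 lay on the U74Av2 array design, 32 on U74Bv2 and 23 on U74Cv2. A further 6 probe sets name a member together with another gene, of which 3 were above background, and these are not assigned to any gene.

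The RNA came from C2C12 cells, an established line of mouse skeletal myoblasts that fuse into myotubes when serum is lowered. All samples share 1 condition, 5 days in differentiation medium (DMEM with 2% horse serum) at 37 °C, and no undifferentiated cells were included. Total RNA was hybridised to 9 Affymetrix arrays, 3 replicates of each of 3 designs that carry different probe sets. The labels give all arrays the same sample identifier and do not say that replicates came from separate cultures, so each p-value below measures only the spread between arrays, which may be technical.

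Initiation begins when eIF2 brings the initiator tRNA to the small ribosomal subunit, which eIF1, eIF1A, eIF3 and eIF5 prepare for scanning. The eIF4F complex recruits the mRNA through its cap, with eIF4E as the cap-binding protein, eIF4G as the scaffold and eIF4A as the helicase. The elongation factor eEF1A then delivers aminoacyl-tRNA, eEF1B recharges eEF1A with GTP, and eEF2 moves the ribosome along the mRNA. Mammals carry a pair of eEF1A genes. Eef1a1 is expressed broadly, while Eef1a2 takes its place in adult skeletal muscle, heart and neurons, a change known to occur after birth in the mouse.

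The RefSeq promoters of Eef1a1, Eef1a2 and Eef2 are shown because these genes carry the results on elongation. Each runs 5′ to 3′ from 250 bases before the annotated start to 50 bases after it, in build GRCm38.p6. Eef1a1 lies at chr9:78481675-78481974 on the minus strand, Eef1a2 at chr2:181156966-181157265 on the minus strand and Eef2 at chr10:81176381-81176680 on the plus strand. Capitals mark matches to the TATA box (TATAA) and to the E-box (CANNTG), the sequence that myogenic factors bind, on either strand.
Eef1a1: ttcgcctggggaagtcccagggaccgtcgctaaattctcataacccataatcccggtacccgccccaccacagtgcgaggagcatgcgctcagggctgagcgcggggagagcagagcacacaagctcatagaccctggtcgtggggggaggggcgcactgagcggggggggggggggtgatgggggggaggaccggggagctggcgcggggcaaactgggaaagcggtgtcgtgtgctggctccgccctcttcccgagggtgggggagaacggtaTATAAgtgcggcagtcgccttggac
Eef1a2: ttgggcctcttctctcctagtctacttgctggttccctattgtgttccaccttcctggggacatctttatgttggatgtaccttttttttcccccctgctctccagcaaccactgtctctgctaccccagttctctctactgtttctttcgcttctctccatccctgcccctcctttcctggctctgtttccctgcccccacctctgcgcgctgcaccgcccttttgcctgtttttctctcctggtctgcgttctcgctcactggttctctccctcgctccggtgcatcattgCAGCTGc
Eef2: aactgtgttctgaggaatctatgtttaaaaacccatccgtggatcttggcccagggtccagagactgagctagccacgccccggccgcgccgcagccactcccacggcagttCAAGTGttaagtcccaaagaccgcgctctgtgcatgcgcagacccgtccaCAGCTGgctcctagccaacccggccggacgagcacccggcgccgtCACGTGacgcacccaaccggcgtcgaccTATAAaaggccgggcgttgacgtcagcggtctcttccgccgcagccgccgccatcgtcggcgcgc
The Eef1a1 window holds 1 TATAA, whose first base lies 26 bases after the annotated start, and 0 E-boxes. The Eef1a2 window holds 0 matches to TATAA and 1 E-box, CAGCTG, near its end. The Eef2 window holds 1 TATAA and 3 E-boxes. A TATAA was found in 5 of 56 promoters (8.93%) of the 42 member genes with a sequence in the RefSeq promoter table, against 24.9% of all 32851 promoters. An E-box was found in 32 of the 56 (57.1%), against 72.3% of all promoters. The GC box (GGGCGG) was found in 40 of the 56 (71.4%), against 35.7%, and the MEF2 site in 1 (1.79%), against 3.69%. Median GC content was 62.5% in the member promoters and 52.7% in all promoters. In the windows shown, 0 matches of different motifs overlapped. These matches describe letters and not binding.

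Most translation factor genes gave signal in the differentiated cells. A probe set counted as detected when its signal lay above the array's background limit on all 3 arrays of its design. That limit is the 95th percentile of controls whose targets the RNA did not contain, and values are given below as multiples of it. Of the 53 member genes, 47 (88.7%) had at least 1 detected probe set, against 62.0% of all genes. By probe set, 43 of 58 (74.1%) were detected on U74Av2, against 58.2% of all probe sets there. On U74Bv2 the share was 18 of 32 (56.2%), against 43.8%, and on U74Cv2 it was 12 of 23 (52.2%), against 31.6%. The member share was thus above the share of all probe sets on each of the 3 designs.

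The 6 genes without a detected probe set were Eef1akmt2, Eef1g, Eif2s3y, Eif4e1b, Eif4h and Eif5a. Among genes measured by a single probe set 15 of 20 (75.0%) were detected, against 48.0% of all such genes. Among those with several, 32 of 33 (97.0%) had at least 1 detected, against 77.1% of all such genes. The median member gene reached 8.52 times the limit with its highest probe set, against 2.75 times for all genes. Its mean rank within the array was at the 82.8th percentile, against the 63.9th. Both take the highest probe set, and 62.3% of member genes had several probe sets, against 47.9% of all genes. Designs also differ in their limits. By probe set within a design, the median multiple was 6.22 on U74Av2, against 2.21 for all probe sets. It was 2.37 against 1.37 on U74Bv2 and 1.33 against 0.727 on U74Cv2. For comparison, cytosolic ribosomal protein genes were detected in 31 of 44 cases (70.5%), mitochondrial ribosomal protein genes in 68 of 74 (91.9%) and proteasome genes in 38 of 45 (84.4%). Their median highest multiples were 22.3, 6.32 and 18.3 in that order, so the 8.52 of the factors lay between them. Their median percentiles were 94.8, 73.9 and 91.3. A level depends on probe affinity as well as on RNA, so a high or low multiple says how far a probe set stood from background and not how much RNA of its gene there was relative to another gene. In RNA of a whole culture, fewer cells of a type and less RNA per cell cannot be told apart.

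**Figure D1:**
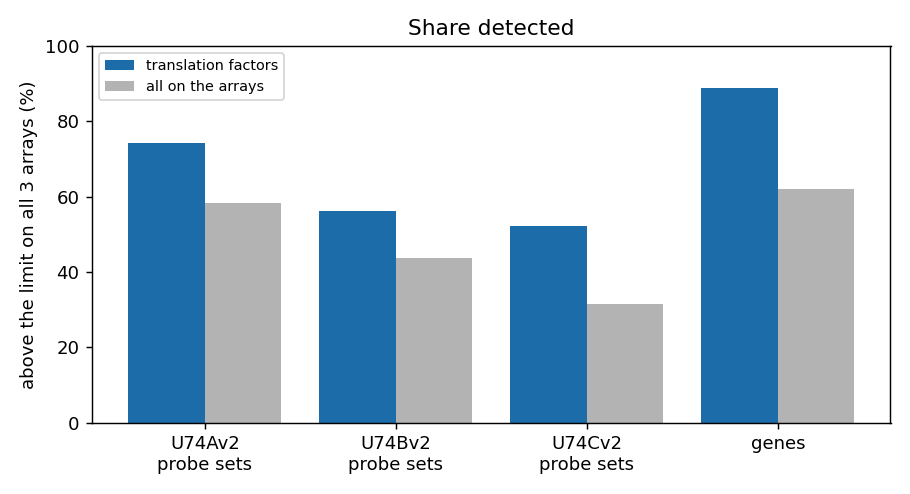
Share of probe sets, by array design, and of genes above the background limit on all 3 arrays, in percent, for the translation factors (blue) and for everything on the arrays (grey). The factor genes stand at 88.7% and all genes at 62.0%.

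The distance from the limit was then set against the spread between replicate arrays, with limma on log2(signal/limit) and Benjamini-Hochberg adjustment over all probe sets of a design. By this test 42 of 58 member probe sets on U74Av2 were above the limit at an adjusted p under 0.05, against 55.8% of all probe sets. On U74Bv2 the count was 16 of 32, against 38.0% of all, and on U74Cv2 it was 11 of 23, against 25.7%. Together these were 69 of 113 probe sets, against 40.1% of all. They named 47 genes (88.7%), against 57.8% of all genes, and 0 of the 69 had failed the rule of 3 arrays. The U74Bv2 limits were 498, 430 and 963 signal units in replicates 1, 2 and 3, and all probe sets of the design had the same standard error of 0.482. A difference between limits moves all probe sets of an array together, which the test does not model. Of single genes on U74Bv2 only the p-values of those near the limit are given. The difference between limits bears on these p-values too, so they are to be read with that caution.

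The cells carried the markers of muscle. All 10 muscle markers (Myog, Myod1, Acta1, Myh3, Des, Ckm, Mymk, Tnnt2, Cdh15 and Chrng) were detected, against 62.0% of all genes. Of 11 measured markers of other cell types, 3 (27.3%) were detected. These were Epcam, Gfap and Pecam1, at 10.2, 3.07 and 1.39 times the limit. Epcam was detected by 2 of 4 probe sets and Gfap by 1 of 3. Alb, Cdh5, Ptprc, Cd3e, Krt5, Adipoq, Syp and Pou5f1 were not detected. By limma 10 of 10 muscle markers and 2 of 11 others were above the limit, against 57.8% of all genes. Pecam1 did not pass (adjusted p = 0.14, limma). The part of Epcam, Gfap and Pecam1 in the results below was not tested.

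Eef1a1, the broadly expressed eEF1A gene, had the highest multiple of the limit among the factors. Its only probe set, 94766_at on U74Av2, had signals of 76312, 76464 and 99171 in replicates 1, 2 and 3. The mean was 343 ± 62 times the limit (SD, n = 3), and it ranked at the 99.98th percentile of its arrays. It lay 8.41 ± 0.24 (SE) above the limit on the log2 scale (adjusted p = 5.7e-07, limma). Replicate 3 stood above the other two, which were nearly equal. The same held for the brightest probe sets of U74Av2 in general, since 47 of the 50 brightest were highest in replicate 3, at a median of 1.19 times the mean of the other replicates. After quantile normalization the Eef1a1 signals were 83094, 83529 and 86300. That step gives each rank the same value on every array, so these values hold only the rank of Eef1a1.

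Eef1a2, the eEF1A gene of adult muscle, was also above the limit, at a small multiple. The signals of 94429_at were 902, 628 and 776 in replicates 1, 2 and 3, at 4.38, 2.24 and 3.03 times the limits of those arrays. All 3 lay above the limit, and replicate 2 was the lowest. The mean of 3.22 ± 1.08 times the limit (SD, n = 3) ranked at the 56.8th percentile. On the log2 scale it lay 1.63 ± 0.26 (SE) above the limit (adjusted p = 0.000627, limma), and between 1.38 and 1.86 when each replicate was left out. The probe sets of both eEF1A genes thus gave signal at 5 days. Whether the Eef1a2 probe set also took up Eef1a1 RNA was not tested. A change from one to the other cannot be tested with 1 condition.

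The translocase gene Eef2 had the second highest multiple. Its U74Av2 probe set 97559_at had signals of 35871, 37758 and 38600, which is 153 ± 20 times the limit (SD, n = 3; adjusted p = 5.7e-07, limma). As deposited, its 3 values lay closer together than those of Eef1a1, with an SD of 0.0543 in log2 signal. After quantile normalization, which keeps only the rank on each array, they were 38107, 38831 and 35572, and those of Eef1a1 lay closer together. The U74Cv2 probe set 134806_at gave 4141, 5795 and 6214, 6.63 ± 2.28 times the limit (adjusted p = 0.00132, limma). The remaining probe set, 164982_at on U74Bv2, was not detected, at 37.9, 38.6 and 172. Eef2k, the kinase that phosphorylates and inhibits eEF2, was detected by 3 of 5 probe sets, the highest of which (163206_at) gave 2304, 2678 and 2978. By limma only that 1 of the 5 was above the limit.

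**Figure D2:**
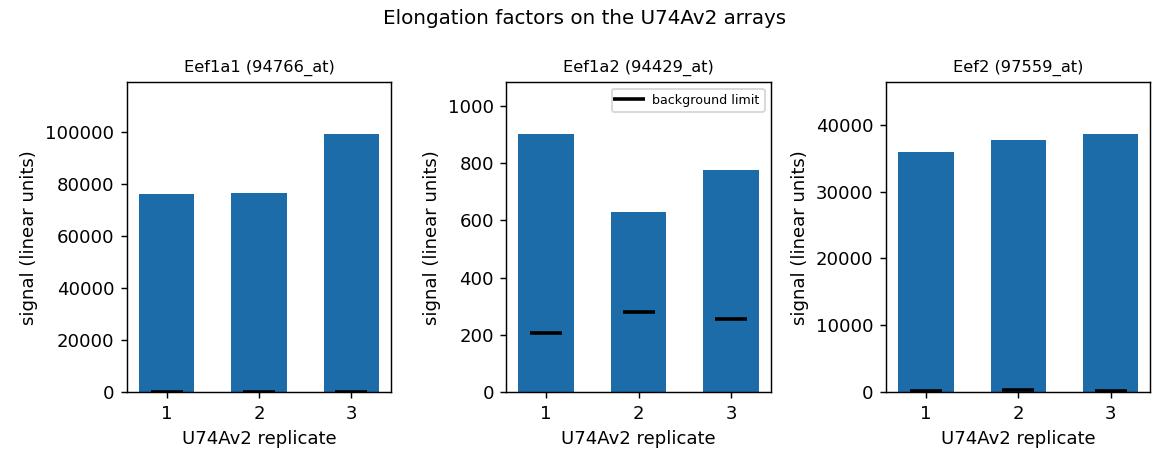
Signal of Eef1a1, Eef1a2 and Eef2 in each U74Av2 replicate (bars, linear axis from 0, each panel with its own scale), with the background limit of that array as a black mark. Eef1a2 stands between 628 and 902 over limits of 206 to 280, whereas the limit is barely visible beside Eef1a1 and Eef2.

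The exchange complex eEF1B was measured through Eef1d, Eef1b2 and Eef1g. Eef1d, a nucleotide exchange subunit, had signals of 5980, 6134 and 5946 (24.7 ± 3.8 times the limit, SD, n = 3), which hardly differed between arrays. Eef1b2, the other exchange subunit, was detected by 1 of 4 probe sets. That probe set, 96624_r_at, gave 718, 1462 and 769, so replicate 2 stood apart from the others. On U74Cv2, 141174_at gave 548, 1485 and 718 and 169018_at gave 923, 1092 and 704, again highest in replicate 2, though neither was detected. The remaining one, 102107_at on U74Av2, gave 147, 343 and 379 and was highest in replicate 3. Eef1g, the structural subunit, was not detected, with 8.05, 23.4 and 19.1 on U74Av2 (161958_at) and 95.8, 202 and 228 on U74Bv2 (164984_i_at). Eef1e1, whose product belongs to the multi-tRNA synthetase complex, lay at 10.7 ± 3.1 times the limit (SD, n = 3).

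Enzymes that methylate the elongation factors were mostly detected, near the limit. Eef1akmt1, which methylates a lysine of eEF1A, had the highest multiple of the 4, at 5.15 ± 0.92 (SD, n = 3), with signals of 1272, 1362 and 1132. Eef1aknmt lay at 4.45 ± 1.92 times and Eef2kmt, which methylates eEF2, at 3.32 ± 0.96 times. Eef1akmt2 gave 1266, 1254 and 914 on U74Bv2 and was above the limit on 2 of 3 arrays (adjusted p = 0.074, limma). Its multiples were 2.54, 2.92 and 0.949 in replicates 1, 2 and 3, where the limit of replicate 3 was the highest, at 963. Without replicate 3 it passed the test (adjusted p = 0.00718, limma).

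All 11 measured eIF3 genes were detected, against 62.0% of all genes. The eIF3 complex is the large scaffold on the small ribosomal subunit. Eif3l had the highest multiple, 59.0 ± 6.9 (SD, n = 3), with signals of 13589, 16490 and 13398, and replicate 2 was the highest. Eif3c (56.5 ± 16.0 times), Eif3d (47.8 ± 8.2), Eif3k (32.5 ± 5.2), Eif3m (31.6 ± 8.5) and Eif3b (21.5 ± 4.1) followed. Eif3k and Eif3d were among the steadiest factors, at 7900, 8016 and 7818 for Eif3k (95715_at) and 11764, 11696 and 11414 for Eif3d (99101_at). Eif3j1, Eif3a and Eif3e lay between 13.4 and 17.5 times the limit. Eif3f, with 567, 666 and 722, and Eif3i, with 1361, 1463 and 2274, were nearest to it, at 2.65 ± 0.24 and 2.83 ± 0.53 times. For Eif3i, 164585_f_at had an adjusted p of 0.00391 in limma, and of 0.0549 and 0.0576 without replicates 1 and 2. A second detected Eif3i probe set, 171540_r_at on U74Cv2, gave 1751, 1848 and 2308 (adjusted p = 0.0161, limma). Its adjusted p was 0.0259, 0.0689 and 0.122 without replicates 1, 2 and 3, so the gene was without a call only when replicate 2 was left out.

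The genes grouped under start codon selection and subunit joining were all detected as well, 6 of 6, against 62.0% of all genes. Eif1ax, which encodes eIF1A from the X chromosome, had the steadiest deposited signal of the detected factors, 30151, 29920 and 29720 on U74Bv2 (165199_f_at). That was 53.6 ± 20.3 times the limit (SD, n = 3), and the spread of the multiple came from the limits. After quantile normalization the signals were 31053, 30176 and 29480, a wider spread than that of Eif3k (7947, 7807 and 7967). Of the 8 Eif1ax probe sets, the most of any factor, 5 were detected. Among them 93358_at on U74Av2, which has no suffix for cross-hybridisation, lay at 22.6 ± 3.0 times. Eif1a and Eif1b, close relatives of Eif1ax and of Eif1, lay at 13.1 ± 2.6 and 14.8 ± 2.2 times. Eif5, which makes eIF2 hydrolyse its GTP, lay at 10.6 ± 1.4 times, and Eif5b, which joins the subunits, at 7.62 ± 1.12 times with all 3 probe sets detected. Eif1ad, counted among the 6 although it only shares the eIF1A domain, lay at 5.65 ± 3.11 times.

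Genes of eIF2 and of the delivery of initiator tRNA were detected in 4 of 5 cases (80.0%). The share was 62.0% of all genes and 77.1% of all genes with several probe sets. Eif2s3x, the X-linked gene of the gamma subunit, gave 14443, 15226 and 13634, 59.2 ± 9.5 times the limit (SD, n = 3; adjusted p = 7.73e-07, limma). Its Y-linked counterpart Eif2s3y gave 49.8, 31.3 and 17.7 and lay below the limit on all 3 arrays. Eif2s2, the beta subunit, lay at 2.98 ± 0.23 times with 160365_at. The unconventional factors Eif2a and Eif2d, which can bring tRNA to the ribosome without eIF2, lay at 4.74 ± 0.87 and 6.05 ± 0.83 times.

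All 5 subunits of eIF2B were detected, against 62.0% of all genes. This complex recharges eIF2 with GTP and is blocked by phosphorylated eIF2 under stress. Eif2b4 lay at 15.8 ± 1.5 times the limit of U74Cv2 with 168311_f_at (SD, n = 3), with signals of 14979, 12618 and 12263. Its other probe set, 95046_s_at on U74Av2, lay at 7.14 ± 1.90 times. With their highest probe sets, the other subunits ran from 7.60 ± 2.73 times for Eif2b3 to 9.03 ± 0.84 times for Eif2b2. Eif2b1 and Eif2b5 lay between them. Further probe sets were lower, at 3.09 times for Eif2b5 (160804_at) and 3.68 times for Eif2b2 (164731_f_at). For Eif2b3, 139598_at lay at 0.092 times and was not detected.

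Of the genes of the cap complex and its partners, 9 of 11 (81.8%) were detected. That share lay above the 62.0% of all genes but near the 77.1% of all genes with several probe sets. Eif4a2, a helicase gene, had the highest multiple, with signals of 10824, 13778 and 11807 (49.3 ± 3.3 times the limit, SD, n = 3). Eif4b, which stimulates the helicase, lay at 29.8 ± 6.1 times, and Eif4a1, the other eIF4A gene measured, at 15.8 ± 3.4 times. The scaffold Eif4g3 lay at 6.39 ± 2.43 times and Eif4g2, which lacks the eIF4E binding site, at 5.98 ± 1.11 times.

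Eif4e, the cap-binding protein itself, was detected by 1 of its 3 probe sets. On U74Cv2, 137241_f_at gave 4196, 3213 and 5016 (4.96 ± 1.25 times the limit, SD, n = 3; adjusted p = 0.00151, limma). On U74Av2, 99097_at gave 169, 207 and 106 and 162222_r_at gave 38.7, 24.5 and 48.7, below the limit throughout. Its relatives Eif4e2 and Eif4e3 lay at 3.91 ± 0.96 and 2.61 ± 1.21 times. Eif4e3 passed the test (adjusted p = 0.0164, limma) but not without replicate 1 (0.209) or replicate 2 (0.17). Its multiples were 3.26, 3.35 and 1.21 in replicates 1, 2 and 3, the last over the higher limit of 963. Eif4enif1, which carries eIF4E into the nucleus and into P-bodies, lay at 10.5 ± 4.8 times.

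Eif4e1b and Eif4h were not detected. Eif4e1b, an eIF4E relative of oocytes, gave 634, 342 and 161 (0.43 ± 0.21 times the limit, SD, n = 3). Eif4h, a cofactor of eIF4A, gave 105, 63.7 and 56.7 with its single probe set. Eif5a, which eases the joining of prolines and carries the modified amino acid hypusine, gave 243, 183 and 97.3 with its single probe set. It lay above the limit in replicate 1 and below it in the others. Its relative Eif5a2 gave 3137, 3510 and 3707 with 166679_i_at on U74Cv2, and 27.9, 235 and 248 with 105769_at on U74Bv2, which was not detected. Eif6, which keeps the large subunit from joining too early, was detected by all 3 of its probe sets, at 19.5 ± 4.2 times with 94826_at.

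**Figure D3:**
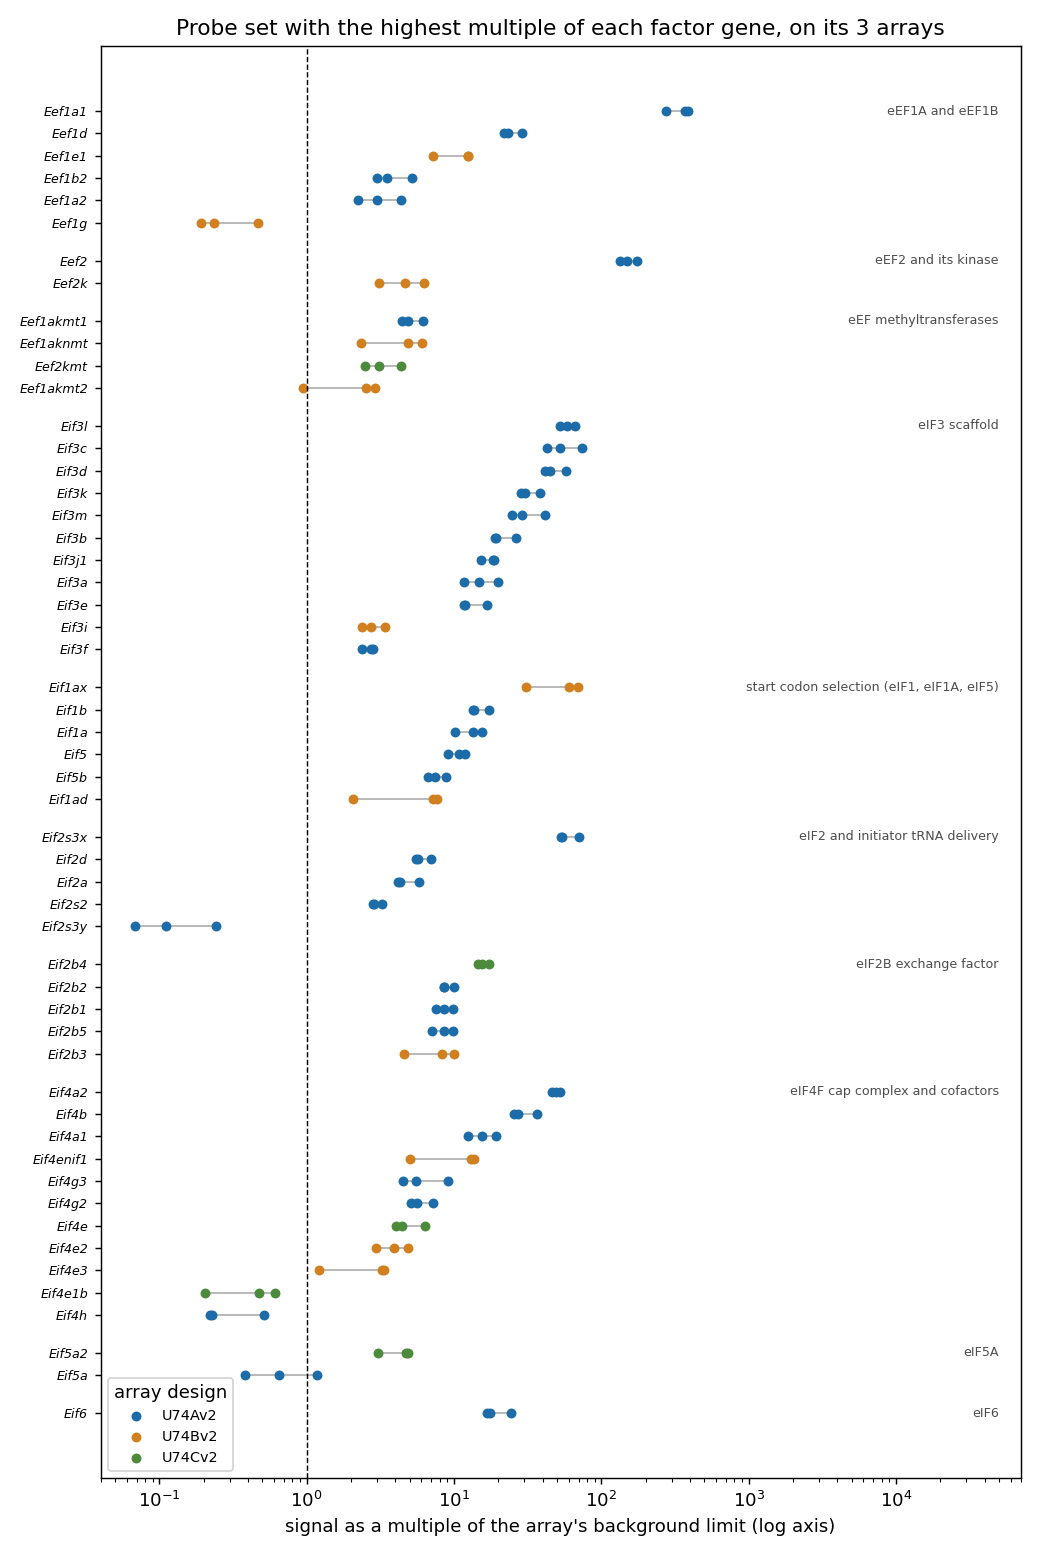
Multiple of the background limit on each of the 3 arrays (points, log axis) for the probe set with the highest multiple of each of the 53 genes, grouped by role and coloured by array design, with the limit as a dashed line. Eef1a1 and Eef2 lie farthest to the right, and 4 genes (Eef1g, Eif2s3y, Eif4e1b and Eif4h) have all 3 points below the limit.

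Probe sets of one gene often went apart. Of the 33 member genes with several probe sets, 11 had all detected, 21 had some detected and 1, Eef1g, had none. Over all 7645 such genes on the arrays, 21.7% had all detected, 55.4% some and 22.9% none. The 21 were Eef1aknmt, Eef1b2, Eef2, Eef2k, Eif1ax, Eif2b3, Eif2d, Eif2s2, Eif2s3x, Eif3b, Eif3d, Eif3f, Eif3i, Eif3l, Eif4b, Eif4e, Eif4e2, Eif4e3, Eif4enif1, Eif4g3 and Eif5a2. Within a design, Eif4b showed it clearly on U74Av2, where 100557_g_at gave 7569, 7166 and 6976 and 100558_at gave 48.4, 37.2 and 36.0. A gene listed as not detected by 1 probe set is therefore a statement about that probe set.

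The suffixes _f_at, _r_at, _s_at, _i_at, _g_at and _x_at mark probe sets that may match several transcripts or were picked under relaxed rules. They were counted together, and not each of them marks cross-hybridisation. Member probe sets with such a suffix were detected in 18 of 31 cases (58.1%), against 41.0% of all probe sets with one. Those without were detected in 55 of 82 cases (67.1%), against 45.9%. Eef1b2, Eif4b, Eif4e and Eif5a2 were detected only through probe sets with a suffix, and so were Eif2b4, Eif3i and Eif4a1, whose probe sets all carry one.

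**Figure D4:**
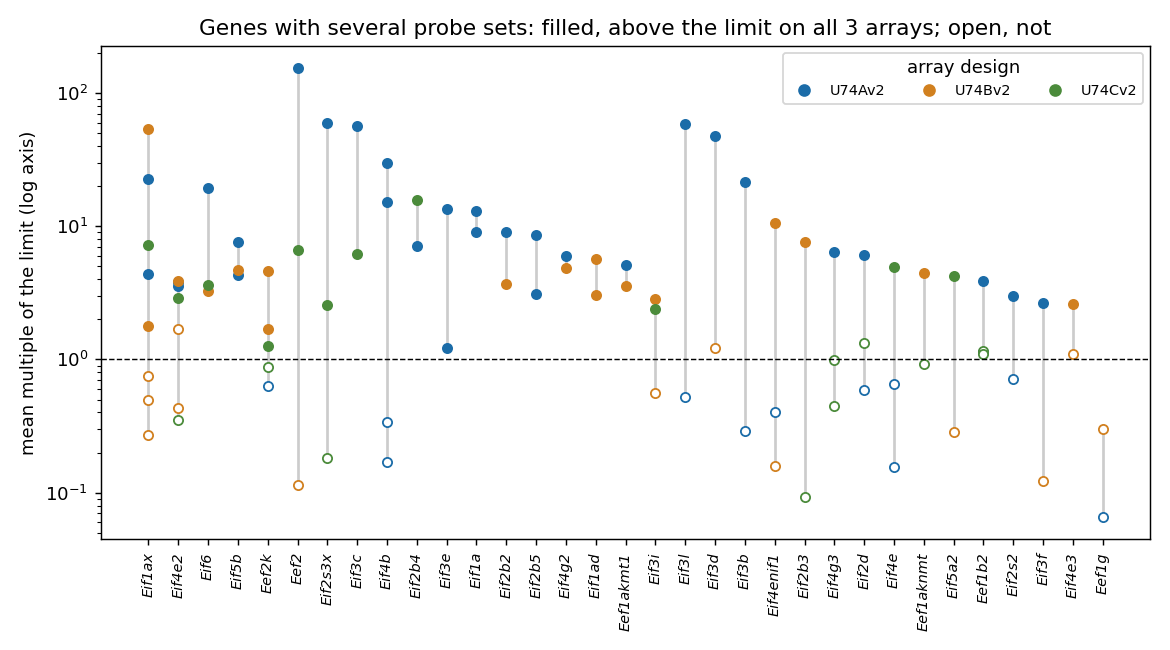
Mean multiple of the background limit (log axis) for every probe set of the 33 genes with several, coloured by array design. Filled points were above the limit on all 3 arrays and open points were not, and 21 genes have points of both kinds.

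Replicate arrays followed one another about as closely for the factors as for other genes. The median SD of log2 signal over detected member probe sets was 0.135 on U74Av2, against 0.154 for all detected probe sets. It was 0.213 on U74Bv2, against 0.178, and 0.221 on U74Cv2, against 0.238. The 5 detected probe sets with the largest SD were those of Eif6 (137639_at, 0.629), Eef1b2 (96624_r_at, 0.566), Eif1ad (114568_at, 0.459), Eif5b (98141_at, 0.441) and Eif3i (164585_f_at, 0.401). For Eif6 the U74Cv2 signals were 1671, 3893 and 3061, lowest in replicate 1. For Eif1ad they were 3604, 3290 and 1996, lowest in replicate 3, and for Eif5b 1064, 1360 and 741, highest in replicate 2.

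The direction of the deviations was looked at next. On U74Av2, 30 of 43 detected member probe sets (69.8%) lay above their own mean in replicate 2, against 50.7% of all detected probe sets. In replicate 3 the count was 13 of 43 (30.2%), against 49.6%. The shifts were small, with median deviations of 0.04 and -0.03 in log2 signal. On U74Cv2 the members' median deviation was -0.10 in replicate 1, against 0.01 for all detected probe sets, and 4 of 12 lay above their own mean. In replicate 3 of that design it was 0.14, against 0.00, and 7 of 12 lay above their own mean. On both U74Bv2 and U74Cv2, replicate 1 was run on another fluidics station than replicates 2 and 3. The members' median deviation in replicate 1 of U74Bv2 was 0.01, and the part of the station was not tested. The deviations of a probe set sum to 0, so the replicates are not independent of one another.

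**Figure D5:**
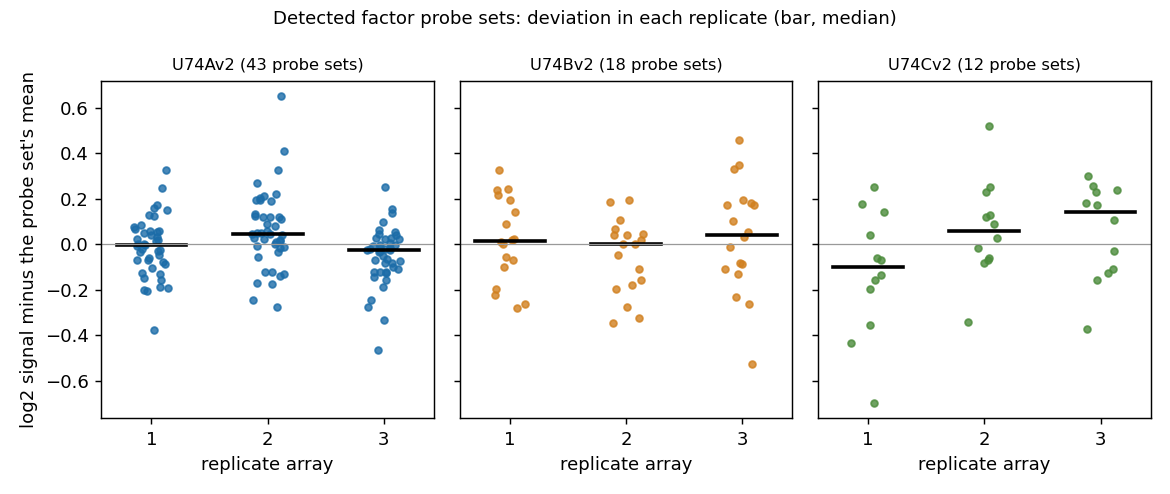
Log2 signal minus the probe set's own mean over 3 arrays, for each detected factor probe set (points), by replicate and array design, with the median as a black bar. The medians stay within 0.14 of 0 on all 9 arrays.

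Genes that work with the factors were looked at in 4 lists, against the 62.0% of all genes that were detected. Among all genes that share was 77.1% for those with several probe sets and 48.0% for those with 1. Each list holds genes of both kinds. Of the inhibitors and kinases that act on initiation, 12 of 14 measured genes (85.7%) were above the limit on all 3 arrays, and Eif2ak2 and Eif2ak4 were not. Mknk2, a kinase of eIF4E, had the highest multiple there, at 23.6 ± 5.3 (SD, n = 3). Eif4ebp1, which sequesters eIF4E until mTORC1 phosphorylates it, gave 3546, 4115 and 3660. All 10 measured genes of mTORC1 and S6 kinase were detected, with Akt1s1, an inhibitor of the complex, at 35.3 ± 10.2 times the limit of U74Cv2. All 11 genes of poly(A) binding, termination and recycling were detected too, led by the poly(A) binding protein Pabpc1 at 99.4 ± 20.9 times. Of the mitochondrial and other factors, 10 of 13 (76.9%) were detected, and Mtif3, Gfm2 and Mtrf1 were not. Their highest member, Tpt1, gave 82340, 81081 and 107263, with replicate 3 above the others as for Eef1a1. By limma the counts of these lists were 11 of 14, 10 of 10, 11 of 11 and 9 of 13, against 57.8% of all genes.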

How the data were processed

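The authors deposited 1 intensity per probe set, not log-transformed. The submitters' processing notes name MAS5, whose version and settings the sources used here do not give. With 2% cut at each end, the mean of an array lay between 1500.3 and 1500.9, so arrays had been scaled to a common level, each by itself. Designs were therefore analysed apart. Symbols came from the platform annotation, and 53 of 53 member symbols stood unchanged in the RefSeq table of GRCm38.p6, from which the promoters also came.

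Background limits rested on absent-sequence controls, 20 each on U74Av2 and U74Bv2 and 17 on U74Cv2, leaving out control families with a median above the design's median signal. They lay between 206 and 280 on U74Av2, 430 and 963 on U74Bv2, and 725 and 1030 on U74Cv2. The number of arrays, 3 per design, limits the precision. Each gene is represented by the probe set whose mean multiple of the limit is highest. The moderated test used limma 3.58.1 in R 4.3.3 and was tested on simulated data with noise drawn for each probe set by itself. Probe sets set to a true log2 multiple of 2 were called in 99%, 97% and 98.5% of cases on U74Av2, U74Bv2 and U74Cv2, and those set to 1 in 95%, 63% and 87%. The error of a limit is shared by all probe sets of an array, which neither the adjustment nor the simulation models. The simulated shares therefore do not cover that error. Python 3.11.15 (pandas 2.3.3, numpy 2.4.6) ran everything else, and matplotlib 3.10.9 drew the figures.

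The rule for named genes took Eef1a1 and Eef1a2, the highest and the undetected genes of each role and list, genes with discordant probe sets, and the 5 detected probe sets with the largest spread. The remaining members are named so that every member is accounted for, and they, Eif4ebp1 and the marker genes were named after their values were seen. Members, lists, motifs and marker genes were chosen with earlier results of these data known. Factor genes without a probe set of their own were not analysed here.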

Additional observations from a re-analysis of the deposited data

How the results depend on the processing

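The number of detected member genes lay between 47 and 48 with the array median or the highest control as the limit, with limma as the call, with quantile normalization, and without each replicate. Without probe sets that carry a suffix (_f, _r, _s, _i, _g or _x) it was 40 of 49 (81.6%), against 60.1% of all genes. With U74Av2 alone it was 36 of 43 genes (83.7%), against 66.6%, and 43 of 58 probe sets. Both settings hold fewer probe sets, and the part of this in the fall was not tested. Without the suffixes, Eef1b2, Eif4b, Eif4e and Eif5a2 had no detected probe set left. The genes above the limit by limma numbered 47 with signals floored at 50 and with quantile normalization, and between 45 and 48 without each replicate. Eif4e3 was the 1 gene lost without replicate 1, Eif3i and Eif4e3 were the 2 lost without replicate 2, and Eef1akmt2 was the 1 gained without replicate 3. Eif4e1b no longer lay below the limit by the test without replicate 2 or 3, and Eif5a did with the floor. The median SD of log2 signal without each replicate ranged from 0.0769 to 0.113 on U74Av2, from 0.115 to 0.192 on U74Bv2 and from 0.145 to 0.243 on U74Cv2. It was lowest without replicate 3 on all 3 designs, and the cause was not tested. No paired analysis was possible because each probe set was measured on 1 design and in 1 condition, so that no groups share it. Where the limit is high, as on U74Cv2, weak signals could not be told from background.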
